A study of Mus musculus with 16 samples.

Results

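Cornified envelope genes were measured in whole-lung RNA of C57BL/6 mice aged 9 to 12 weeks. The set holds 10 genes, chosen by name: loricrin (Lor), the small proline-rich proteins Sprr1a, Sprr1b and Sprr3, involucrin (Ivl), the transglutaminases Tgm1 and Tgm3, desmoglein Dsg1a, keratinocyte differentiation associated protein (Krtdap) and galectin Lgals7. They are 10 of the 20863 named genes of the array and have 12 spots, of which Ivl and Tgm3 have 2 each. Every spot is given beside the level of Krt13, a keratin of wet stratified epithelia, in the same array.

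Target site blockers are oligonucleotides that mask the place where a microRNA binds an mRNA. The one tested here masks such a place in Cav1, the gene of the membrane protein caveolin-1. Mice received it at 5 mg/kg, or else a control blocker, into the trachea. Bleomycin at 1 unit/kg, a drug that injures the lung, or PBS (phosphate-buffered saline) followed after the first 2 of 3 doses, which preceded it by 4 and 2 days, and the last dose came 4 days later. The groups were 6 lungs given bleomycin and the CAV1 blocker, 6 given bleomycin and the control blocker, 2 given PBS and the CAV1 blocker and 2 given PBS and the control blocker, each on 1 array. No group was without a blocker. Nothing in the labels ties the samples to separate animals, so the p-values speak only of the spread between samples, which may be technical.

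The cornified envelope is the cross-linked protein shell that replaces the membrane of the outermost cells of keratinising stratified epithelia, such as epidermis, the tongue and the rodent oesophagus. Involucrin, loricrin and the small proline-rich proteins are its building blocks, transglutaminases join them by covalent bonds, and desmosomal cadherins hold the flattened cells together. The alveoli and conducting airways of a normal lung are lined by simple or pseudostratified epithelium, which has no cornified layer.

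The members Lor, Sprr1b, Sprr3, Sprr1a and Ivl lie in 1 gene cluster on mouse chromosome 3, the epidermal differentiation complex, and the promoters of 4 of them are shown with that of Krtdap because these genes did not all follow Krt13 alike. RefSeq promoter windows (GRCm38.p6, 250 bases before to 50 bases after the start) matched 9 of the 10 members, with 10 windows in all. Capitals mark TGANTCA, the letters of an AP-1 site, which reads the same on both strands. AP-1 is the family of Fos and Jun transcription factors.

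Lor, chr3:92083093-92083392, minus strand: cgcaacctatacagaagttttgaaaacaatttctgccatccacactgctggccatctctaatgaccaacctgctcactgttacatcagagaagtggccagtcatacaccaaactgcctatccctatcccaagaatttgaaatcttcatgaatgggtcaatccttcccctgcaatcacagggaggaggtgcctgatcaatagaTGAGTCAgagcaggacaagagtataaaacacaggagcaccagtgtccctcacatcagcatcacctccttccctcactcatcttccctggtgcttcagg

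Sprr1a, chr3:92485832-92486131, minus strand: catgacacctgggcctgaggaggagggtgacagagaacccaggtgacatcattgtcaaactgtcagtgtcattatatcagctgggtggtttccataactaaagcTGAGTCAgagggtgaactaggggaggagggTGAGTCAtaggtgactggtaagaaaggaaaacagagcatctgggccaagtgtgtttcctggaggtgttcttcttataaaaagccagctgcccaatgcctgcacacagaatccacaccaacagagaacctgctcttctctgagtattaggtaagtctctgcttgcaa

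Sprr3, chr3:92458671-92458970, minus strand: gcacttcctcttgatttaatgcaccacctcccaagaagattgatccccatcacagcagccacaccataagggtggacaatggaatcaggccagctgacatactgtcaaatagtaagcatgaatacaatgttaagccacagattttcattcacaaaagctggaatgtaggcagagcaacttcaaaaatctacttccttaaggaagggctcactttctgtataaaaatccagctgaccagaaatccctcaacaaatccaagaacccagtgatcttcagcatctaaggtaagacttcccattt

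Ivl, chr3:92573686-92573985, minus strand: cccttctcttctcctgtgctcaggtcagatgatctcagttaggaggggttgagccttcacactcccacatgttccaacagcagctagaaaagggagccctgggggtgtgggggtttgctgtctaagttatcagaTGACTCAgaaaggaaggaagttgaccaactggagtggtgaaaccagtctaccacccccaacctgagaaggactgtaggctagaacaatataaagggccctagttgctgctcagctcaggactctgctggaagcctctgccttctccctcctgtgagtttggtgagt

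Krtdap, chr7:30787655-30787954, plus strand: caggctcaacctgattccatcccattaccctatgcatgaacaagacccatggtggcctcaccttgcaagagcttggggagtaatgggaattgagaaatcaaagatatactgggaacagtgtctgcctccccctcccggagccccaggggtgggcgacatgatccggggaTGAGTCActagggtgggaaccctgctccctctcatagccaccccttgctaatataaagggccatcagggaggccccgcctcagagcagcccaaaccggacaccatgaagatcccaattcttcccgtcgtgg

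TGANTCA stood in the windows of 5 members, against 7.81% of all 32851 promoter windows in the table. Sprr1a held it at 2 places, beginning 146 and 116 bases before the start, and 0.46% of all windows held it at 2 or more places. It began 48 bases before the start in Lor, 81 in Krtdap and 116 in Ivl, and Sprr1b, whose window is not printed, held it 111 bases before the start. The windows of Sprr3, Tgm1, Tgm3 and Lgals7 did not hold these letters. TATAAA, searched on both strands after the sequences had been seen, stood in 7 of the 10 windows, those of Lor, Sprr1a, Sprr1b, Sprr3, Ivl, Tgm3 and Krtdap, and in 13.62% of all windows. It began 27 to 43 bases before the start in each of the 7. These matches are a description of the letters, and nothing about the factors was measured.

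The lung identity of the samples was clear in every array. The mean log2 signal of 6 alveolar type 2 genes was 15.43 to 15.89 and that of 5 alveolar type 1 genes was 13.71 to 14.29 over the 16 arrays. Deposited values were log2 signals with a median of 6.51 or 6.52 and a minimum of 5.39 to 5.41 in each array. No detection marks were used here, so a signal under about the array median is given as a value and not as absence. The number of arrays limits the precision.

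Krt13 took 2 separate levels across the lungs. Its brighter spot read 6.08, 14.31 and 14.97 (lowest, median and highest) after bleomycin with the CAV1 blocker and 5.99, 14.07 and 14.49 after bleomycin with the control blocker. After PBS it read 5.97 and 6.01 with the CAV1 blocker and 14.50 and 14.01 with the control blocker. It thus lay at 13.70 to 14.97 in 11 arrays and 5.97 to 6.08 in 5 arrays, with none between, and the gap covered 84.6% of its whole range. The 5 low arrays were bleomycin array 3 with the CAV1 blocker, bleomycin arrays 2 and 6 with the control blocker, and both PBS arrays with the CAV1 blocker. The second Krt13 spot read 10.76 to 12.31 and 6.47 to 6.75 in the same 2 sets. Both sets hold bleomycin arrays of both blockers, while each PBS group lay wholly in 1 set. In whole-lung RNA, fewer cells of a type and less RNA per cell cannot be told apart.

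Loricrin, the most abundant protein of the epidermal envelope, followed Krt13 in all 16 arrays. Its signal was 6.49, 15.33 and 15.99 (lowest, median and highest) after bleomycin with the CAV1 blocker and 6.86, 15.19 and 15.45 after bleomycin with the control blocker. After PBS it was 6.86 and 7.09 with the CAV1 blocker and 15.76 and 13.97 with the control blocker. The arrays at 7.09 or below were the 5 with low Krt13, and the other 11 read 13.97 or more.

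**Figure D1:**
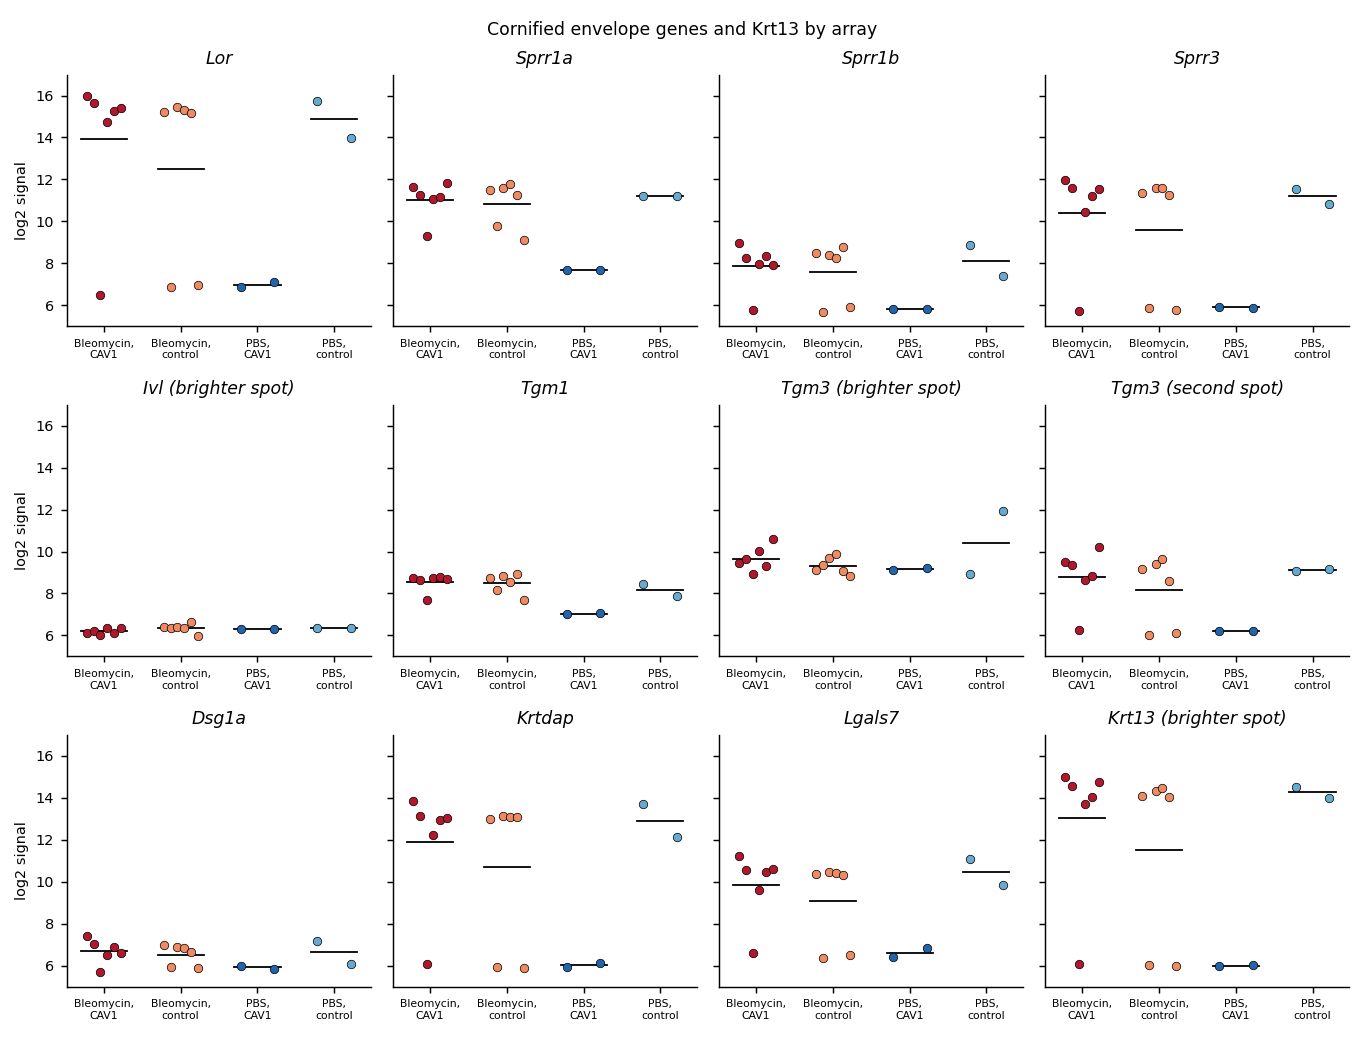
Log2 signal (vertical axis) of the 10 cornified envelope genes and Krt13 by group (horizontal axis), 1 point per array, with a line at the group mean and Tgm3 shown at both spots. Lor, Sprr3, Krtdap, Lgals7 and Krt13 lie at 2 levels within each bleomycin group, both arrays of PBS with the CAV1 blocker lie at the lower one, and Ivl lies between 5.96 and 6.64 in every array.

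Sprr3, a small proline-rich precursor known from oral and oesophageal epithelium, showed the same division. It read 5.74, 11.37 and 11.98 after bleomycin with the CAV1 blocker and 5.75, 11.31 and 11.59 after bleomycin with the control blocker. In PBS lungs it read 5.92 and 5.87 with the CAV1 blocker and 11.56 and 10.82 with the control blocker. Its signal did not exceed 5.92 in any array with low Krt13 and was at least 10.44 in the others.

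Sprr1b, a related precursor, had a narrower span. Bleomycin lungs gave 5.77, 8.11 and 8.98 with the CAV1 blocker and 5.65, 8.31 and 8.78 with the control blocker. PBS lungs gave 5.84 and 5.80 with the CAV1 blocker and 8.86 and 7.40 with the control blocker. The 5 arrays with low Krt13 lay between 5.65 and 5.91, under the array medians, and the other 11 between 7.40 and 8.98.

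Sprr1a, whose product is likewise cross-linked into the envelope and which injured neurons and stressed heart muscle are also known to induce, took 3 levels instead of 2. After bleomycin it read 9.30, 11.19 and 11.82 with the CAV1 blocker and 9.09, 11.39 and 11.77 with the control blocker. After PBS it read 7.66 and 7.66 with the CAV1 blocker and 11.21 and 11.22 with the control blocker. Among the arrays with low Krt13, the 3 bleomycin lungs lay between 9.09 and 9.77 and the 2 PBS lungs at 7.66. All 11 arrays with high Krt13, PBS lungs included, lay between 11.07 and 11.82.

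Involucrin, an early scaffold protein of the envelope, had low signals in every lung, at percentiles 23.01 to 52.35 of the array at its brighter spot. Its brighter spot read 6.02, 6.18 and 6.37 after bleomycin with the CAV1 blocker and 5.96, 6.39 and 6.64 after bleomycin with the control blocker. It read 6.29 in both PBS arrays with the CAV1 blocker and 6.37 in both with the control blocker. Its second spot lay between 6.02 and 6.45 over the 16 arrays. Neither spot was divided by the level of Krt13.

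Tgm1, the membrane-bound transglutaminase of keratinocytes, had a narrower span than Sprr1a. Bleomycin lungs read 7.71, 8.69 and 8.77 with the CAV1 blocker and 7.70, 8.66 and 8.93 with the control blocker. PBS lungs read 7.01 and 7.05 with the CAV1 blocker and 8.47 and 7.86 with the control blocker. Bleomycin arrays with low Krt13 read 7.70 to 8.15 and those with high Krt13 read 8.57 to 8.93, without overlap. PBS control array 2, with high Krt13, lay inside the first of these ranges at 7.86, and both PBS arrays with low Krt13 lay under all others.

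The 2 spots of Tgm3, a transglutaminase of hair follicle and stratified epithelium, did not give the same pattern. The second spot read 6.26, 9.11 and 10.23 after bleomycin with the CAV1 blocker and 6.01, 8.87 and 9.66 after bleomycin with the control blocker. It read 6.20 and 6.21 after PBS with the CAV1 blocker and 9.06 and 9.19 after PBS with the control blocker, so it was divided as Krt13 was. The brighter spot read 8.94, 9.53 and 10.58 after bleomycin with the CAV1 blocker and 8.85, 9.25 and 9.90 after bleomycin with the control blocker. It read 9.09 and 9.21 after PBS with the CAV1 blocker and 8.91 and 11.94 after PBS with the control blocker. Arrays with low Krt13 (8.85 to 9.38) overlapped the lower end of those with high Krt13 (8.91 to 11.94) at that spot, and 1 PBS array stood above all others. The fits below use the brighter spot of each gene, and the second spot is given where it differs.

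Dsg1a, a desmosomal cadherin of differentiated keratinocytes with the close copies Dsg1b and Dsg1c, had low signals. Dsg1a stood at percentiles 1.04 to 26.93 of the array in the 5 arrays with low Krt13 and 35.08 to 62.29 in the other 11. It read 5.68, 6.75 and 7.43 after bleomycin with the CAV1 blocker and 5.87, 6.74 and 6.99 after bleomycin with the control blocker. After PBS it read 6.00 and 5.83 with the CAV1 blocker and 7.17 and 6.09 with the control blocker. The arrays with low Krt13 ended at 6.00 and the others began at 6.09. Signal shared between these copies could not be separated.

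Krtdap, a secreted protein of differentiating keratinocytes, spanned almost as wide a range as Lor. It read 6.10, 13.01 and 13.85 after bleomycin with the CAV1 blocker and 5.87, 13.03 and 13.15 after bleomycin with the control blocker. After PBS it read 5.92 and 6.13 with the CAV1 blocker and 13.72 and 12.12 with the control blocker. No array fell between 6.13 and 12.12.

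Lgals7, a galectin of stratified epithelia, read 6.60, 10.52 and 11.24 after bleomycin with the CAV1 blocker and 6.36, 10.34 and 10.45 after bleomycin with the control blocker. After PBS it read 6.41 and 6.83 with the CAV1 blocker and 11.08 and 9.83 with the control blocker. The 5 arrays with low Krt13 lay between 6.36 and 6.83, and the other 11 between 9.59 and 11.24.

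**Figure D2:**
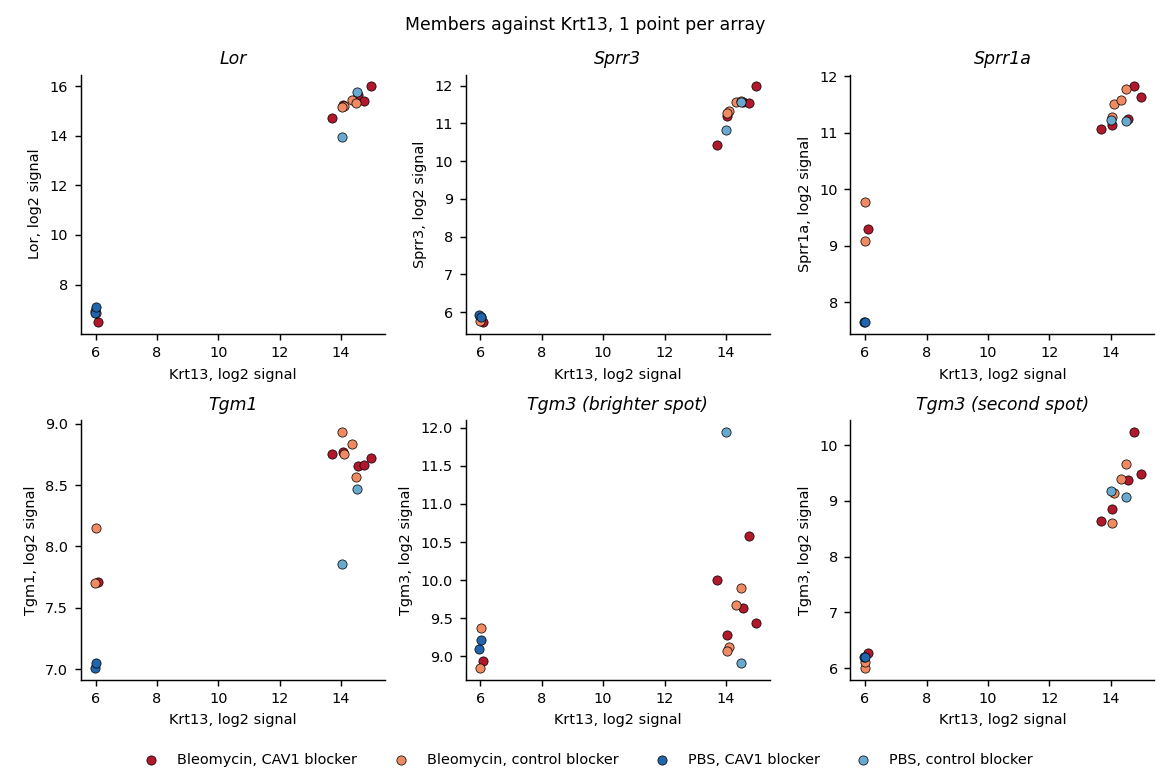
Log2 signal of Lor, Sprr3, Sprr1a, Tgm1 and both Tgm3 spots (vertical axes) against Krt13 (horizontal axis), 1 point per array, coloured by group. Sprr1a has a middle level of 9.09 to 9.77 in the 3 bleomycin arrays with low Krt13, above the 2 PBS arrays at 7.66, and the brighter Tgm3 spot has 1 PBS array at 11.94.

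Because the arrays fell into 2 clusters by Krt13, the relation of each spot to Krt13 was taken only within the 11 arrays of the higher cluster, in 12 relations. Of these, 5 had a Benjamini-Hochberg adjusted permutation p under 0.05 (two-sided, 100000 resamples). Sprr3 had r = 0.897 (adjusted permutation p = 0.00096) and rho = 0.827 (adjusted permutation p = 0.012). Lgals7 had r = 0.849 (adjusted permutation p = 0.00462) and rho = 0.909 (adjusted permutation p = 0.00258). For both genes the arrays with more Krt13 were also those with more signal inside the higher cluster.

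Krtdap had r = 0.771 and rho = 0.764, the second Tgm3 spot r = 0.764 and rho = 0.727, and Lor r = 0.739 and rho = 0.9, each r with an adjusted permutation p of 0.0174 and each rho with 1 between 0.00258 and 0.0351. Sprr1a (r = 0.665, adjusted permutation p = 0.0545) and Dsg1a (r = 0.609, adjusted permutation p = 0.077) did not pass. Tgm1 (r = 0.0513), the brighter Tgm3 spot (r = -0.116), Sprr1b (r = 0.382) and the Ivl spots (r = -0.394 and -0.129) were far from passing. Without the 2 arrays farthest from the Krt13 median, r was 0.784 for Sprr3, 0.793 for the second Tgm3 spot, 0.634 for Lgals7, 0.615 for Lor, 0.511 for Krtdap and 0.542 for Sprr1a. It was 0.0127 for Sprr1b. The 11 arrays come from 3 groups, and both genes of a pair were read on the same array.

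The first question of the design was what the CAV1 blocker did in bleomycin-injured lungs. No member was called changed between the CAV1 blocker and the control blocker after bleomycin (limma, adjusted p under 0.05 over 20304 genes), against 1.61% of all genes. None passed at an unadjusted p under 0.05 either, against 9.08% of all genes. Positive differences numbered 9 of 10, with a median of 0.30 over the members and -0.01 over all genes. Lor averaged 13.91 ± 3.66 with the CAV1 blocker and 12.49 ± 4.33 with the control blocker (SD, n = 6 each), a log2 difference of 1.42 with a 95% confidence interval of -2.62 to 5.45. The difference of Sprr1a was 0.20 (interval -0.82 to 1.22) and that of Tgm1 was 0.057 (interval -0.42 to 0.53). The lungs with low Krt13 numbered 1 of 6 with the CAV1 blocker and 2 of 6 with the control blocker.

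With the 5 arrays of low Krt13 left out of the fit, Lor differed by 0.11 and Krtdap by -0.036 between the blockers, and no member was called. Sprr1a was then at -0.15, Sprr1b at -0.18, Sprr3 at -0.0975 and Tgm1 at -0.057, so these differences, like that of Krtdap, had turned sign.

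After PBS, where the blocker acted without injury, the CAV1 blocker was set against the control blocker with 2 arrays each. No member was called (limma, adjusted p), against 0.31% of all genes. At an unadjusted p under 0.05, 7 members passed, all lower with the CAV1 blocker, against 12.8% of all genes in both directions. The median over the members was -2.93 and that over all genes 0.04. Lor averaged 6.97 ± 0.16 with the CAV1 blocker and 14.86 ± 1.26 with the control blocker (SD, n = 2 each), a difference of -7.89 (interval -14.88 to -0.90) and a limma adjusted p of 0.384. The fit takes 1 spread for each gene from all 4 groups. For Lor that spread came mainly from the bleomycin groups (SD 3.66 and 4.33), each of which holds both levels of Krt13, and little from the PBS lungs. Krtdap differed by -6.90, Sprr3 by -5.30, Lgals7 by -3.83 and Sprr1b by -2.31, with limma adjusted p between 0.374 and 0.39.

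Sprr1a came nearest to the threshold in PBS lungs. It averaged 7.66 with the CAV1 blocker and 11.21 with the control blocker, a difference of -3.55 (SE 0.828, limma adjusted p = 0.0953). Without PBS control array 1 it was called (difference -3.56, limma adjusted p = 0.0335), in a fit that called 19.8% of all genes. Tgm1 differed by -1.13 (SE 0.385, limma adjusted p = 0.322). Since both PBS arrays with the CAV1 blocker had low Krt13 and both with the control blocker had high Krt13, blocker and Krt13 level cannot be told apart within the PBS lungs.

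The second question was what bleomycin did under each blocker. Under the control blocker no member was called between bleomycin and PBS (limma, adjusted p), against 2.41% of all genes, and none had an unadjusted p under 0.05, against 15.9%. Negative differences numbered 9 of 10, with a median of -0.82 over the members and 0.03 over all genes. Lor averaged 12.49 ± 4.33 after bleomycin (SD, n = 6) and 14.86 ± 1.26 after PBS (SD, n = 2), a difference of -2.37 (interval -8.07 to 3.34). Tgm1 had the 1 positive difference, 0.33 (interval -0.34 to 0.99).

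Under the CAV1 blocker, 2 of the 10 members were called higher after bleomycin than after PBS, Sprr1a and Tgm1, against 0.517% of all genes called. Sprr1a averaged 11.03 ± 0.90 after bleomycin (SD, n = 6) and 7.66 after PBS (n = 2), a log2 difference of 3.38 (SE 0.676, limma adjusted p = 0.0432). Tgm1 averaged 8.55 ± 0.41 after bleomycin (SD, n = 6) and 7.03 ± 0.02 after PBS (SD, n = 2), a difference of 1.52 (SE 0.314, limma adjusted p = 0.0463). All 6 bleomycin arrays lay above both PBS arrays for each gene, and the share of all genes divided in this way was not counted. Both PBS arrays had low Krt13, and of the bleomycin arrays only array 3 did (Sprr1a 9.30, Tgm1 7.71). Bleomycin and Krt13 level were thus largely confounded in this comparison. A further 5 members (Lor 6.94, Krtdap 5.86, Sprr3 4.52, Lgals7 3.23 and Sprr1b 2.05) had an unadjusted p under 0.05 and were not called, and 14.8% of all genes had such a p.

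**Figure D3:**
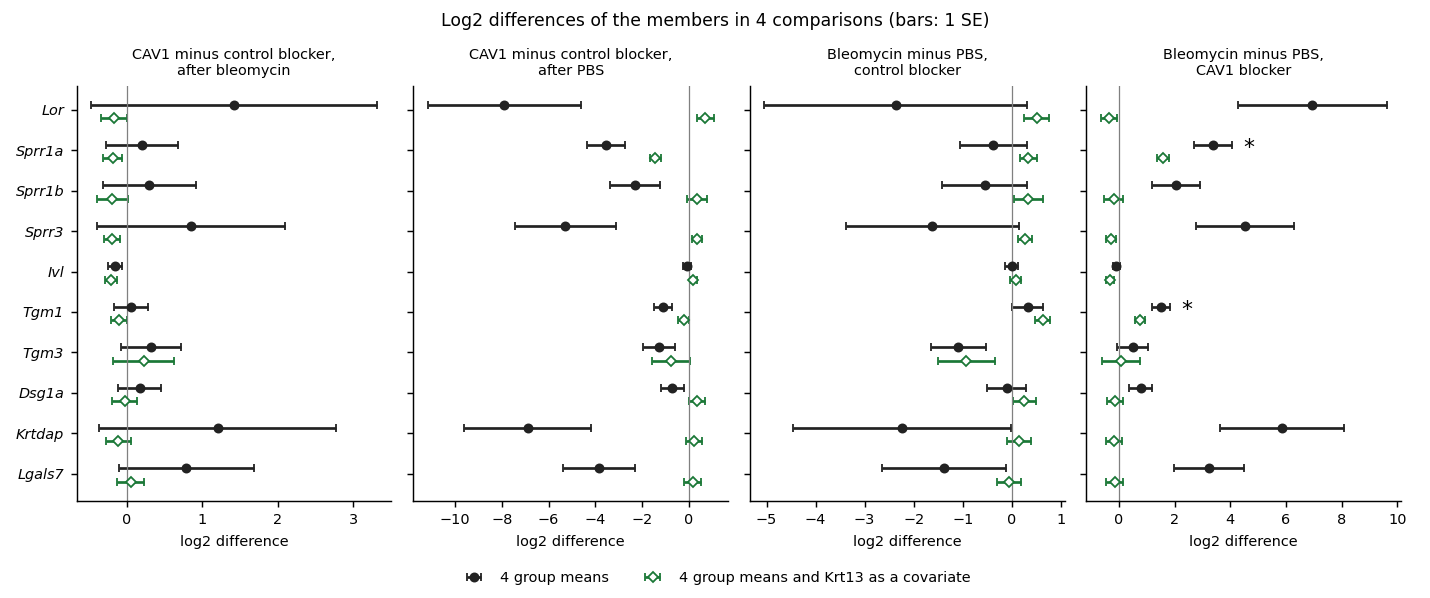
Log2 differences (horizontal axes, bars 1 SE) of the 10 members (vertical axis) in 4 comparisons, from the fit of 4 group means (filled) and from that with Krt13 as a covariate (open), where an asterisk marks an adjusted p under 0.05 in the fit of group means. Between bleomycin and PBS under the CAV1 blocker, with Krt13 in the fit, Lor lies at -0.36, Sprr3 at -0.29, Krtdap at -0.18, Lgals7 at -0.16, Sprr1a at 1.58 and Tgm1 at 0.75.

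Both calls lay close to the threshold and rested on 2 PBS arrays. Each was lost when any 1 of 11 arrays was left out (bleomycin arrays 2, 4, 5 or 6 with the CAV1 blocker, arrays 1, 2, 3, 4 or 5 with the control blocker, or either PBS array with the CAV1 blocker), and over all 16 such fits the limma adjusted p lay between 0.0211 and 0.342 for Sprr1a and between 0.0212 and 0.389 for Tgm1. The difference itself stayed between 3.22 and 3.72 for Sprr1a and between 1.47 and 1.68 for Tgm1. With Krt13 as a covariate, Sprr1a differed by 1.58 (SE 0.204, limma adjusted p = 0.00898) and Tgm1 by 0.75 (SE 0.182, limma adjusted p = 0.2), in a fit that called 0.0345% of all genes. Over all 26 alternatives the adjusted p ran from 0.00166 to 0.47 for Sprr1a and from 0.00125 to 0.47 for Tgm1.

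For Lor the difference between bleomycin and PBS under the CAV1 blocker was -0.36 (SE 0.294, limma adjusted p = 0.964) with Krt13 in the fit, against 6.94 without it. Krtdap was at -0.18 and Sprr3 at -0.29. Between the blockers after PBS, Sprr1a was at -1.44 (SE 0.246, limma adjusted p = 0.0877). The covariate's slope rests on the bleomycin arrays, since Krt13 hardly varied within either PBS group. Krt13 was also among the 10 genes most like the members' mean (r = 0.9975 over the 16 arrays). A fit with Krt13 therefore takes out most of what Lor, Krtdap and Sprr3 share with it. Their small differences in that fit follow from this likeness and are not a separate result.

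No gene of the array was called for the interaction of bleomycin and blocker (limma, 0% of 20304 genes), so no difference between the 2 bleomycin responses was shown for any member. At an unadjusted p under 0.05, 6 members passed, all positive, against 9.22% of all genes. The 2 bleomycin comparisons share no array, but each pair of comparisons with a common group shares its arrays.

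The brighter Tgm3 spot differed by -1.27 between the blockers after PBS and by -1.10 between bleomycin and PBS under the control blocker, and neither was called. Without PBS control array 1, which leaves array 2 at 11.94 alone, these became -2.79 (limma adjusted p = 0.00959) and -2.61 (limma adjusted p = 0.0044), in a fit that called 19.8% and 20.1% of all genes in these comparisons. Without PBS control array 2 they were 0.24 and 0.42. The second spot differed by -2.92 between the blockers after PBS (SE 1.24, limma adjusted p = 0.362 over 30638 spots).

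Other genes of cornification were counted by their role. Of 44 further envelope precursors 39 were measured and 37 tested, and none was called in any of the 5 comparisons. All-gene shares for the counts at an unadjusted p under 0.05 in this and the following lists are 12.8% between the blockers after PBS, 14.8% between bleomycin and PBS under the CAV1 blocker and 9.22% for the interaction. At that threshold 19 precursors were lower with the CAV1 blocker after PBS, 21 were higher and 1 lower with bleomycin under the CAV1 blocker, and 20 were positive for the interaction. Of the 39 measured, 17 had ranges that overlapped between the 11 arrays with high Krt13 and the other 5. The share of all genes with such an overlap was not counted, for this list or the following ones. These sets of arrays were drawn by Krt13 in the same data, so a separation between them is not independent of Krt13. Lce3a, Lce3b and Lce3c, genes of late envelope proteins, had the widest spans of the 39, and some other Lce genes spanned less than precursors outside that family. Lce3a read 12.22 to 14.77 in the 11 arrays with high Krt13 and 5.87 to 5.99 in the other 5, and Lce1c read 10.08 to 12.47 and 5.83 to 6.13 in the same sets. Lce1a2 read 11.74 to 12.88 in the first and 9.25 to 9.65 in the second. Filaggrin (Flg), the keratin-binding protein of epidermis, read 6.02 to 9.03 and 5.75 to 6.21.

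Desmosomal and plakin genes were 14, of which none was called. At an unadjusted p under 0.05, 5 were lower with the CAV1 blocker after PBS, 6 were higher with bleomycin under the CAV1 blocker and 5 were positive for the interaction. The plakophilin Pkp1 read 9.56 to 11.89 in the 11 arrays with high Krt13 and 6.01 to 6.49 in the 5 others, and corneodesmosin (Cdsn) read 9.80 to 11.01 and 6.46 to 6.98. Periplakin (Ppl), a plakin that many epithelia contain, read 11.66 to 12.47 and 11.24 to 11.75, so its 2 ranges overlapped. The ranges overlapped for 6 of the 14 genes, Ppl among them.

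Of 17 measured enzymes and lipid barrier genes none was called. At an unadjusted p under 0.05, 8 were lower with the CAV1 blocker after PBS, 10 were higher with bleomycin under the CAV1 blocker and 7 were positive for the interaction. The lipoxygenase Alox12b read 8.68 to 9.82 in the 11 arrays with high Krt13 and 6.02 to 6.36 in the others. The skin aspartic protease Asprv1 read 12.51 to 14.01 and 6.83 to 7.50. Caspase-14 (Casp14) differed by -1.31 between the blockers after PBS (SE 0.413, limma adjusted p = 0.286).

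Among 20 other squamous surface and cytosol genes, 1 was called with bleomycin under the CAV1 blocker, against 0.517% of all genes. S100a14, an S100 calcium-binding protein of epithelia, was higher there after bleomycin by 2.18 (SE 0.44, limma adjusted p = 0.0432). Of the 20, 8 were lower with the CAV1 blocker after PBS at an unadjusted p under 0.05. At that threshold 11 were higher with bleomycin under the CAV1 blocker and 8 were positive for the interaction. Of 14 regulators of squamous differentiation none was called, and Trp63, the basal cell factor p63, read 11.61 to 12.92 in the arrays with high Krt13 and 11.85 to 12.21 in the others. Grhl3, a grainyhead-like factor of barrier formation, read 7.68 to 10.01 and 6.76 to 7.76. The ranges overlapped for all 14 regulators. Between the blockers after PBS, Grhl3 differed by -1.65, Elf3 by -0.67, Fosl1 by -0.28 and Sox2 by 0.29. An unadjusted p under 0.05 was reached there by 2 lower genes, Elf3 and Grhl3, and 1 higher gene, Sox2.

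Over 11 stratified epithelium keratins the mean signal was 9.09 to 9.96 in the 11 arrays with high Krt13 and 6.49 to 6.82 in the others. Krt4, the partner of Krt13, read 11.85 to 13.30 and 5.93 to 6.25. Krt78 read 10.88 to 12.34 and 6.10 to 6.40. Krt5, Krt14 and Krt15, keratins of basal layers, also read without overlap: Krt5 10.98 to 13.05 and 6.87 to 8.50, Krt14 8.92 to 10.20 and 6.61 to 7.07, and Krt15 10.71 to 12.20 and 7.88 to 9.48. The ranges of the other 5 (Krt6a, Krt6b, Krt16, Krt17 and Krt24) overlapped between the 2 sets, as with Krt17 at 6.17 to 7.22 and 6.03 to 6.67. Of the 11, 6 were lower at an unadjusted p under 0.05 with the CAV1 blocker after PBS and none was called. The epidermal keratin Krt1 read 6.05 to 7.23 and 6.08 to 6.24, and Krt2 read 6.29 to 7.14 and 6.26 to 6.54. Both lay near the array median in all 16 lungs. Krt77 read 5.81 to 6.11 and 5.84 to 6.03, under the median. Krt10 (7.82 to 8.59 and 8.35 to 8.65) and Krt80 (8.75 to 11.21 and 8.43 to 8.96) lay above it in every lung. The ranges overlapped for all 5 of these listed skin keratins, and none was called. Krt1 alone of the 5 was lower at an unadjusted p under 0.05 with the CAV1 blocker after PBS. At that threshold 1 of the 5 was positive for the interaction. A further count was 2 lower with bleomycin under the control blocker, against 15.9% of all genes. Between the blockers after PBS, Krt1 differed by -0.70, Krt80 by -1.19, Krt2 by -0.07 and Krt10 by 0.38.

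**Figure D4:**
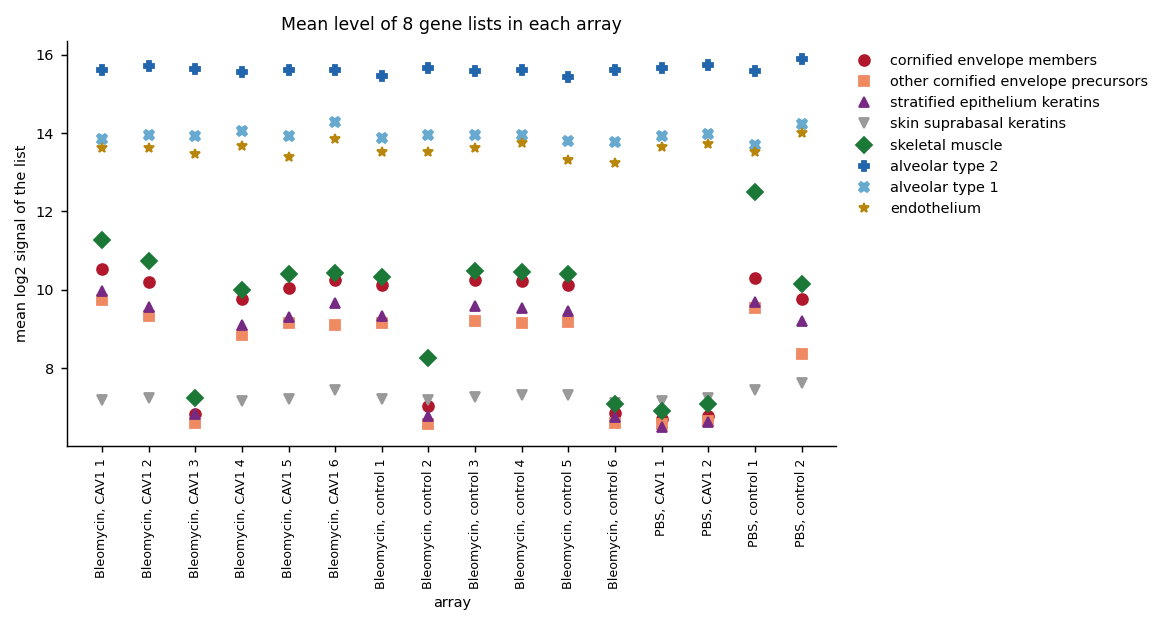
Mean log2 signal (vertical axis) of the members and of 7 other gene lists in each of the 16 arrays (horizontal axis, grouped by treatment). The members, the other envelope precursors, the stratified keratins and skeletal muscle genes are low in the same 5 arrays, while the alveolar and endothelial lists are nearly level.

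Genes of skeletal muscle moved with the members. The mean of 12 muscle genes was 7.24, 10.41 and 11.28 (lowest, median and highest) after bleomycin with the CAV1 blocker and 7.09, 10.36 and 10.48 after bleomycin with the control blocker. After PBS it was 6.91 and 7.09 with the CAV1 blocker and 12.51 and 10.14 with the control blocker. None of the 12 was called. At an unadjusted p under 0.05, all 12 were lower with the CAV1 blocker after PBS, 10 were higher with bleomycin under the CAV1 blocker and 12 were positive for the interaction. Fast troponin T (Tnnt3) averaged 7.70 in PBS lungs with the CAV1 blocker and 13.11 in those with the control blocker. The 5 arrays low in Krt13 (6.91 to 8.25) were also the 5 lowest in muscle genes, the other 11 reading 9.99 to 12.51, and the part of muscle in the results on the members was not tested.

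The list mean of hair follicle keratins was 6.03 to 6.20 in all 16 arrays. That of thyroid genes was 6.11 to 6.46, and that of gastric and mucous surface genes 6.22 to 6.71. Single genes also read outside these ranges. In the gastric list, Tff1 was called higher with bleomycin under the control blocker (log2 difference 0.69, limma adjusted p = 0.024), where 2.41% of all genes were called. The mean of the thymus genes was 6.02 to 6.33 in 15 arrays and 8.15 in PBS control array 1. Removal of that array brought the calls of Tgm3 and of Sprr1a after PBS. The mean of 4 brown adipocyte genes was 8.08, 9.21 and 10.90 (lowest, median and highest) after bleomycin with the CAV1 blocker and 8.02, 8.51 and 8.97 after bleomycin with the control blocker. After PBS it was 8.63 and 8.87 with the CAV1 blocker and 10.76 and 9.60 with the control blocker. The part of thymus and brown adipocyte genes in the results on the members was not tested.

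RefSeq (GRCm38.p6) orders 18 protein-coding genes of chromosome 3 from Lor to Ivl, of which 17 were measured and 5 are members. The 12 others varied by 0.28 to 0.77 over the 16 arrays, against 9.50 for Lor, 6.25 for Sprr3, 4.17 for Sprr1a, 3.32 for Sprr1b and 0.68 for Ivl. Sprr4, the 1 gene between Sprr1a and Ivl, read 5.75 to 6.31.

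The Sprr2 genes are precursors of the same family that lie between Lor and Sprr1b, and 9 were measured. Sprr2a2 read 16.31 to 16.61 in all 16 arrays, and the other 8 stayed under 7 in each. These genes are close copies of one another, and signal shared between them could not be separated.

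**Figure D5:**
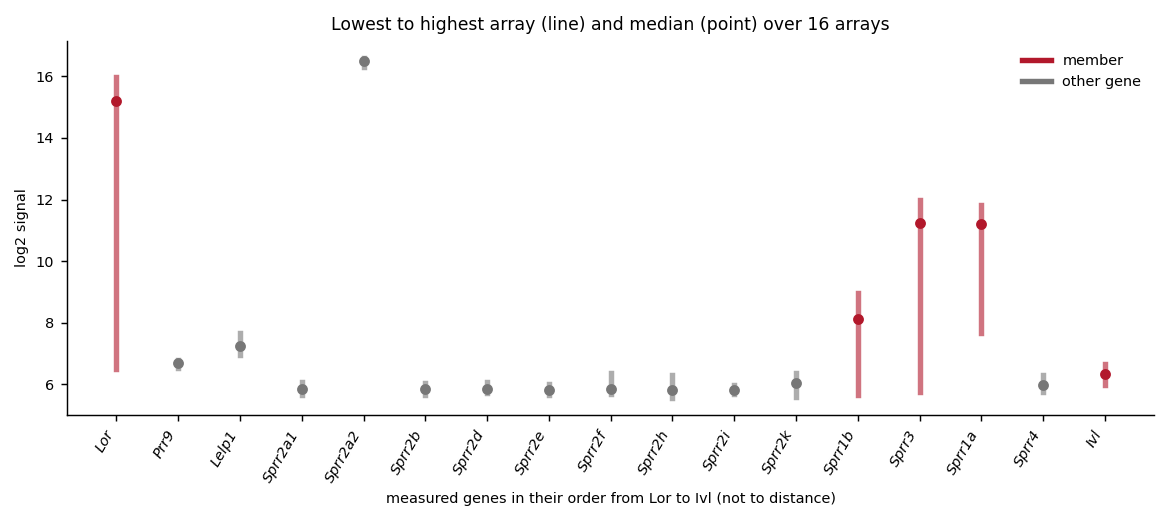
Log2 signal (vertical axis) of the 17 measured genes from Lor to Ivl in their order on chromosome 3 (horizontal axis, not to distance), with a line from the lowest to the highest of 16 arrays and a point at the median. Lor, Sprr1b, Sprr3 and Sprr1a vary by 3.32 to 9.50, and Ivl and the 12 other genes by less than 0.8.

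The genes most like the members were taken by Pearson's r with the members' mean signal over the 16 arrays. The 10 highest were Krt4 (0.998), Krt13, Krt78, Asprv1, Lce3c, Calm4, Lce3f, Crct1, Gsdma and Lce3b (0.996). Calm4, a calmodulin-like protein, read 10.23 to 12.12 in the arrays with high Krt13 and 5.83 to 6.13 in the others, and Crct1, a cysteine-rich protein of the same gene complex, read 12.52 to 14.76 and 5.90 to 6.99. The gasdermin Gsdma read 9.74 to 11.74 and 5.89 to 6.28. With 2 clusters of arrays, these correlations describe the division between the clusters more than the variation within them.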

How the data were processed

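One Agilent single-colour (Cy3) array was hybridised per lung sample from 0.2 µg of RNA. The authors deposited log2 signals, made with limma per the submitters' processing notes. The version, the background correction and the normalization are not given in the sources used here, and the near-identical distributions of the 16 arrays are like those after quantile normalization. The log2 values were used as deposited. Spots were named through the platform annotation, updated by accession through RefSeq (29050 of 31465 named spots matched). Of several spots, the one with the highest mean was used. A filter on low values kept the 20304 genes that exceeded an array's 25th percentile on at least 2 arrays, all 10 members among them.

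Group means were fitted to all 16 arrays with limma 3.58.1 (lmFit, eBayes, R 4.3.3), with two-sided tests and calls at an adjusted p (Benjamini-Hochberg, all genes tested) under 0.05. The 5 comparisons set the blockers against each other within bleomycin and within PBS, set bleomycin against PBS under each blocker, and tested the interaction. The fit was tested on simulated data. Correlations with Krt13 used permutation tests (Python 3.11.15, scipy 1.17.1). The members, the gene lists and the alternatives were chosen with earlier results of these data known. Named were all members and Krt13, and the 10 genes most like the members. Each list described gave up to 4 genes of smallest p between the blockers after PBS. The called genes S100a14 and Tff1 were named too. Called genes of lists not described were Scgb3a1, Cldn4, Hbegf and Tnfrsf12a, each between bleomycin and PBS. Flg, Ppl, Trp63, Krt14, Krt6a, Krt6b, Krt16, Krt24 and Krt77 were named after their values were seen. The TATAAA search was also added after the sequences were seen.

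Alternatives covered the dim filter, the choice of spot, renewed quantile normalization, median centring, trended and robust moderation, array weights, a fit of the compared groups alone, the replicate number as a block, a log2 fold minimum of 1, Krt13 as a covariate, leaving out the arrays low in Krt13, and leaving out each array. Where 1 array was left in a PBS group, its spread was taken to be that of the other groups.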

Additional observations from a re-analysis of the deposited data

Results flagged for a closer look

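In each bleomycin group of 6 arrays, the gap of the highest or lowest array to its neighbour was divided by the group's range and set against a critical value of 0.625, for 28 combinations of spot and group. Of these 10 passed, where chance flags about 1 in 20 groups. In 9 of them the array standing apart was bleomycin with the CAV1 blocker 3, the 1 array of its group with low Krt13. The ratio there was 0.8967 for Tgm1, 0.8659 for Lor, 0.7894 for Krtdap, 0.7523 for Sprr3, 0.7028 for Sprr1a, 0.6733 for Sprr1b and 0.6434 for Lgals7, and 0.8567 and 0.7222 for the spots of Krt13. These 9 share 1 array and are not independent. In the group with the control blocker 2 arrays were low, so neither stood alone. The remaining one was the second Ivl spot in bleomycin with the control blocker 5 (ratio 0.7986), which read 6.45.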

How the results depend on the processing

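No member was called between the blockers after bleomycin under any alternative. The 2 calls between bleomycin and PBS under the CAV1 blocker (0.517% of all genes) became 1 with trended and robust moderation (0.522%), 4 with array weights (13.4%), 0 in the fit of the compared groups alone (0%), 0 with the replicate block (0%) and 1 with Krt13 as a covariate (0.0345%), and 0 to 2 when an array was left out. After PBS 1 member (Sprr1a) was called in the fit of the compared groups alone (0.0148% of all genes), and 0 to 2 when an array was left out. Leaving out an array gave 0 to 1 under the control blocker and 0 to 2 for the interaction; Sprr1a and Tgm3 were those called after PBS and for the interaction, without PBS control array 1. That fit called 19.8% of all genes after PBS, 20.1% under the control blocker and 14.8% for the interaction. Same-numbered samples were not treated as pairs. Their deviations from the group means correlated at -0.69 to 0.35 after bleomycin and at 0.016 after PBS, where groups of 2 give a single value. These values cannot show whether the numbers mark pairs, since the deviations also hold the division by Krt13.

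Signs turned for small or uncalled differences. With Krt13 as a covariate they were, after bleomycin, Lor -0.17, Sprr1a -0.19, Sprr1b -0.19, Sprr3 -0.20, Tgm1 -0.11, Dsg1a -0.032 and Krtdap -0.11; after PBS, Lor 0.70, Sprr1b 0.33, Sprr3 0.35, Ivl 0.18, Dsg1a 0.36, Krtdap 0.20 and Lgals7 0.15; between bleomycin and PBS under the control blocker, Lor 0.50, Sprr1a 0.33, Sprr1b 0.33, Sprr3 0.26, Ivl 0.078, Dsg1a 0.25 and Krtdap 0.14, and under the CAV1 blocker Lor -0.36, Sprr1b -0.19, Sprr3 -0.29, Dsg1a -0.14, Krtdap -0.18 and Lgals7 -0.16. Without the arrays low in Krt13 they were, after bleomycin, Sprr1a -0.15, Sprr1b -0.18, Sprr3 -0.0975, Tgm1 -0.057 and Krtdap -0.036, and under the control blocker Lor 0.43, Sprr1a 0.32, Sprr1b 0.34, Sprr3 0.25, Ivl 0.094, Dsg1a 0.20 and Krtdap 0.16. No PBS array with the CAV1 blocker is left there, so the other comparisons gave no value. Under the control blocker Ivl was 0.015 with the mean of spots and 0.0064 with array weights, and Dsg1a 0.12 with the replicate block. When an array was left out, after bleomycin Sprr1a ran from -0.15 to 0.55, Sprr1b from -0.089 to 0.72 and Tgm1 from -0.10 to 0.22. Tgm3 ran from -2.79 to 0.24 after PBS and from -2.61 to 0.42 under the control blocker, where Sprr1b ran from -1.29 to 0.18, Ivl from -0.065 to 0.070 and Dsg1a from -0.65 to 0.43. For Tgm1 against Krt13 rho was -0.3. Except for the settings that change the arrays or terms of the fit, the cause of these turns was not tested. With 2 arrays in each PBS group, every comparison with PBS rests on few samples, and the files used here give no signal over background.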
